A study of Mus musculus with 2 samples.

Results

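Of the 35861 regions in which the MBD-seq signal of Control chondrocytes exceeded that of Uhrf1 conditional knockout (cKO) chondrocytes, 332 lay in or near a Zfp zinc finger gene. The Zfp genes were the protein-coding genes of chromosomes 1 to 19 named Zfp and a digit, of which there were 387, and 1 further gene of this name pattern was left out by the rule. A region was counted when it overlapped, by 1 bp or more, the annotated span of such a gene widened by 5 kb on each side. The 332 regions were 0.957% of the 34675 regions on these chromosomes and belonged to 186 of the 387 genes, while 201 genes had none. Together they held 43747 Control tags over 163 kb of DNA. The rule picks regions from the deposited list by gene names and positions and by no measured value. It was chosen with earlier results of these data known. At the edge of the rule, a region 4973 bp from Zfp239 (230 tags, fold 17.45) was counted and a region 5079 bp from Zfp518a (180 tags, fold 12.81) was not.

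The study set Uhrf1 cKO against Control primary chondrocytes, the cells that form cartilage, from the knees of C57BL/6 mice at postnatal day 3. Both cultures had received recombinant human BMP-2, a growth factor of cartilage and bone, at 100 ng/ml for 24 hours, so the comparison is between treated cultures. The MBD2 protein served to capture methylated DNA for sequencing, with 1 library per genotype, and all values below come from the authors' deposited table of regions that sets these libraries against each other. The labels do not say which Cre line or promoter made the knockout, or how many animals were pooled. No cell type check can be made from a list of DNA regions.

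Uhrf1 binds hemimethylated CpG sites behind the replication fork and brings the maintenance methyltransferase Dnmt1 to them. Mouse genes named Zfp encode zinc finger proteins of several classes. Most belong to the C2H2 class, and many of these carry a KRAB domain, through which they recruit Trim28 and the H3K9 methyltransferase Setdb1 to silence retroelements and to keep imprints. Many KRAB zinc finger genes arose by tandem duplication and sit side by side in clusters of close copies. Members without a KRAB domain include developmental transcription factors, and the Zfp36 proteins are CCCH zinc finger proteins that bind RNA.

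A tag is a sequenced Control fragment end kept after duplicate removal. The fold is the authors' ratio of Control signal at the summit to the background expected from the cKO library, so a fold above 1 means more methylated DNA captured from Control cells. The FDR is the percent estimate of the authors' caller from swapping the libraries, with a ceiling of 100%. With 1 library each, no difference has a replicate check and no p-value was computed. Intervals are exact 95% intervals of counting error only. The libraries held 15039206 kept tags in cKO (76.1% of 19760028) and 9782276 in Control (44.8% of 21831989). Whether this gap in duplicate removal moved any value below was not tested.

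Among the 324 Zfp genes with a promoter sequence, 3 had a region over a window of the RefSeq promoter table, and these sequences are shown for that reason. The starts in that table can differ from the outer ends of the gene spans, which serve for all distances from a gene start below. Each line gives the 250 bases before the annotated start, 5′ to 3′, from RefSeq on GRCm38.p6, with each CG, the site of methylation, in capitals. The Zfp217 window (chr2:170142676-170142925, minus strand) is an internal start of the gene. The Zfp600 window lies at chr4:146156577-146156826 on the plus strand and the Zfp979 window at chr4:147642509-147642758 on the minus strand.
Zfp217: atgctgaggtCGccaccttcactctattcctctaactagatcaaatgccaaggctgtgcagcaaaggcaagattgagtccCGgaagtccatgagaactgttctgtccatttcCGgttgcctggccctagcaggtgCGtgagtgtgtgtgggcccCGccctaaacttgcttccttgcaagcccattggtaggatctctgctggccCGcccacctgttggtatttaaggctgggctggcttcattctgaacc
Zfp600: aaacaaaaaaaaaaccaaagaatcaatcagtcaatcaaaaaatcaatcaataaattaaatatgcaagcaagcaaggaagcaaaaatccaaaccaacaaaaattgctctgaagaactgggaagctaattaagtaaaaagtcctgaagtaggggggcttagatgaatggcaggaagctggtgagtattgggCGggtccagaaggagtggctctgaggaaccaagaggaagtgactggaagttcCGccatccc
Zfp979: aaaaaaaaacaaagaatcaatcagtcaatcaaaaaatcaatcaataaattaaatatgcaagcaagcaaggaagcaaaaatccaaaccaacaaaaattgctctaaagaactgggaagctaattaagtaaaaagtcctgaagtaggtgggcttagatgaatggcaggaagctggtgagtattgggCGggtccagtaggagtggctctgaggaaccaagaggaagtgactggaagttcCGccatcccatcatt

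The region over the Zfp217 window (chr2:170142492-170143104) had 197 Control tags, a fold of 11.64 and an FDR of 0%, and its summit lay 127 bp upstream of that start. Zfp217 is a transcriptional repressor amplified in human breast cancer. The windows of Zfp600 and Zfp979 are close copies, with 96.7% identity over 300 bases, and each holds 2 CG sites in the 250 bases shown, against 6 in the Zfp217 window. The Zfp600 region (chr4:146156638-146157121) had 70 tags, a fold of 7.16 and an FDR of 100%. The Zfp979 region (chr4:147642243-147642771) had 128 tags, a fold of 8.14 and an FDR of 50.60%. The treatment of reads that match several places is not given in the sources used here, so the values of such near-identical copies are uncertain.

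By the starts of the RefSeq promoter table, a region over a promoter window was rare for Zfp genes and for other genes. It was found for 3 of 393 Zfp windows of 300 bases (0.763%, 0.158 to 2.21%) and for 137 of 19691 windows of other protein-coding genes (0.696%). The motif CG, which reads the same on both strands, occurred in 99.7% of Zfp windows and in 95.5% of the others. All 3 overlapped windows held 5 to 14 CG sites, a class in which 3 of 165 Zfp windows (1.82%) and 78 of 4734 other windows (1.65%) were overlapped.

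Across the family, 48.1% of Zfp genes had a region (186 of 387, 43.0 to 53.2%), close to the background of 49.0% over all protein-coding genes of these chromosomes. Of the 186 genes, 109 had a single region, 42 had 2, 16 had 3, 8 had 4 and 11 had 5 or more. The share was highest in long genes, among Zfp genes and others. It was 41.4% (24 of 58, 28.6 to 55.1%) for Zfp genes with spans under 10 kb, against 24.1% of other genes of that length, or 27.6% of the others without olfactory receptors. It was 40% (62 of 155) for Zfp genes of 10 to 20 kb, against 46.4% of others, and 48.1% (63 of 131, 39.3 to 57%) for those of 20 to 50 kb, against 59% of others. Of the few long Zfp genes, 16 of 20 at 50 to 100 kb (80%) and 21 of 23 at 100 kb or more (91.3%) had a region, against 73.1% and 86.8% of others. The interval of Zfp genes under 10 kb lay above the share of all other genes of that length and met that of the others without olfactory receptors (26.5 to 28.7%). The interval of Zfp genes of 20 to 50 kb lay below that of the others (57.6 to 60.4%). Among named families, 23 of 40 Zbtb genes (57.5%, 40.9 to 73%), 9 of 27 Zscan and Zkscan genes (33.3%, 16.5 to 54%) and 49 of 1104 olfactory receptors (4.44%) had a region.

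**Figure D1:**
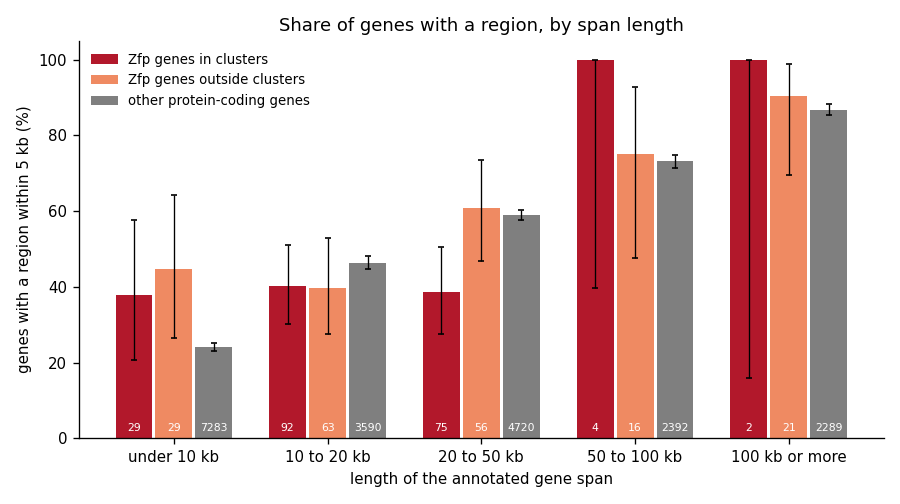
Share of genes with a region in the span widened by 5 kb (vertical axis, %) by length of the gene span (horizontal axis), for Zfp genes in clusters, Zfp genes outside clusters and other protein-coding genes, with exact 95% intervals and the number of genes at the foot of each bar. At 20 to 50 kb the bars stand at 38.7% for Zfp genes in clusters, 60.7% for Zfp genes outside clusters and 59% for other genes. At 10 to 20 kb they stand at 40.2%, 39.7% and 46.4%.

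The median fold of the Zfp regions was 10.91 (10.13 to 11.97, quartiles 8 and 15.71), against 12.10 (12.02 to 12.19) for the other autosomal regions. Regions near other protein-coding genes had a median of 11.9 (11.8 to 12.1), whose interval overlaps that of the Zfp regions, and those near Zbtb genes (11.2) and Zscan and Zkscan genes (11.4) lay between. At the same time the median of tags was 108 near Zfp genes and 104 elsewhere. A fold of at least 10 was reached by 186 Zfp regions (56%, 50.5 to 61.4%), against a background of 64.2% over all autosomal regions. A fold of at least 20 was reached by 51 (15.4%), against 21% of all. An FDR of at most 5% was given to 183 (55.1%, 49.6 to 60.6%), near the background of 57.3%, and an FDR of 100% to 57 (17.2%), near 16.1% of all. The intervals of the medians describe the spread over regions, which share the same 2 libraries.

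**Figure D2:**
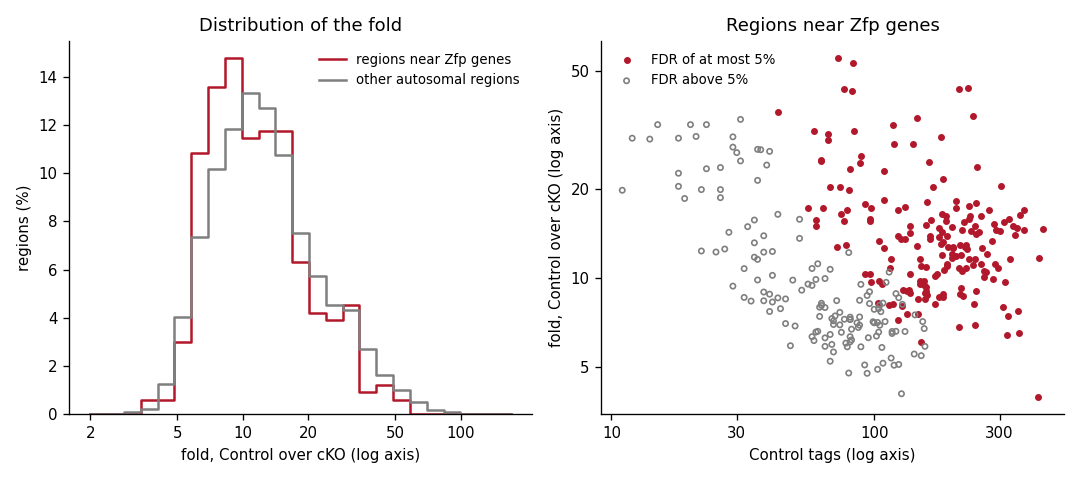
Left, distribution of the authors' fold, Control over cKO (log axis), as a percentage of the 332 regions near Zfp genes and of the other autosomal regions. Right, fold against Control tags (both log axes) for the 332 regions, filled where the FDR is at most 5% and open where it is higher; folds of 30 or more include 6 regions with fewer than 50 tags.

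The highest fold near a Zfp gene, 55.53 with 73 tags and an FDR of 0%, lay at chr13:119795452-119795870, with its summit 4320 bp upstream of the start of Zfp131 and outside any coding gene. Zfp112, a gene of a chromosome 7 cluster, followed with 53.41 and 83 tags at chr7:24126854-24127256, inside its span and 843 bp before its end. Zfp941 had the highest score of the family, 2140.58, in a region within its span (chr7:140812224-140812810, 228 tags, fold 43.76). At Zfp523 a region of 210 tags and fold 43.54 lay inside the neighbouring gene Scube3, and a second of 146 tags and fold 34.62 lay inside Zfp523 itself. In all, 18 regions had a fold of at least 30, of which 6 had fewer than 50 tags and 5 had an FDR above 5%. Such shallow regions included one of 15 tags and fold 32.96 in Zfp423 and one of 20 tags and the same fold in Zfp365.

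Most Zfp regions lay inside the genes. Placed by summit, 242 (72.9%) lay in a Zfp span and no other coding gene, 2 in a Zfp span and another coding gene, 79 (23.8%) outside coding genes and 9 (2.71%) in another coding gene alone. By an overlap of 1 bp, 248 regions touched a Zfp span. Strand was known for 324 of the 387 genes, which left 259 pairs of a region and a gene to place by summit. Of these, 166 (64.1%, 57.9 to 69.9%) lay in the body of the Zfp gene, against 76.6% of pairs for other genes. At the start, within 1 kb, lay 18 (6.95%, 4.17 to 10.8%), against 2.36% for other genes. At the end lay 17 (6.56%), against 4.61%, with 27 (10.4%) in the upstream flank, against 8.34%, and 31 (12%) in the downstream flank, against 8.08%. Counted per gene, 18 of 324 Zfp genes (5.56%, 3.33 to 8.64%) and 440 of 16132 others (2.73%, 2.48 to 2.99%) had a summit within 1 kb of the start. These intervals do not overlap, and the Zfp share rests on few genes. The shares of pairs were not matched for gene length. Among genes of 10 to 50 kb, 252 Zfp genes were set beside 6619 others. A summit in the first 5 kb of the span was found in 9.52% (6.2 to 13.8%) and 11.4%. For the middle of the span it was 17.1% (12.6 to 22.3%) and 29.5%, and for the last 5 kb 9.52% and 14.5%.

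Summits were counted in bins of 1 kb on both sides of the start. In the first 1 kb downstream of it there were 2.47 summits per 100 Zfp genes (1.07 to 4.87, exact Poisson), against 1.02 (0.873 to 1.19) per 100 other genes, which is where other genes were lowest, and the intervals overlap at their edges. In the 1 kb upstream there were 3.09 per 100 Zfp genes (1.48 to 5.68), against 1.78 (1.58 to 2), which overlap as well. A summit within 1 kb of the end was found in 16 of 324 Zfp genes (4.94%) and in 5.37% of others.

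**Figure D3:**
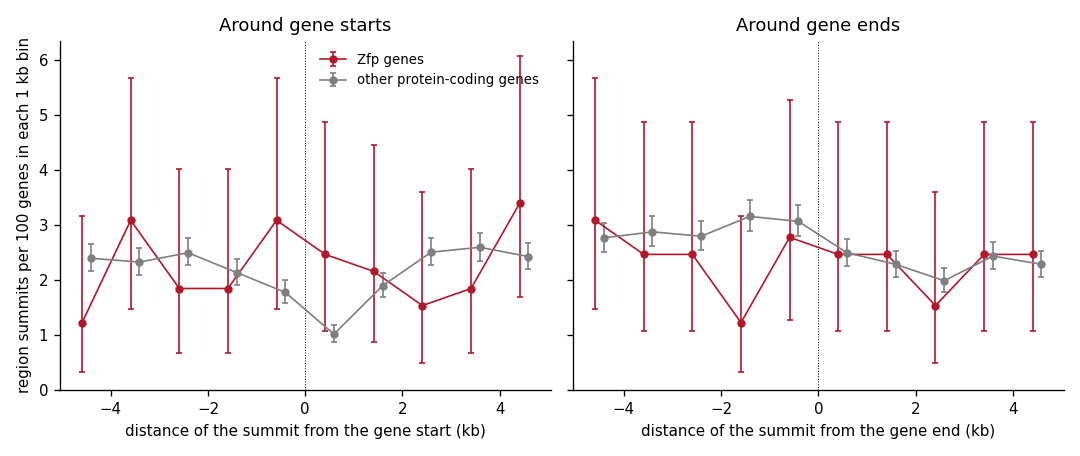
Number of region summits per 100 genes in 1 kb bins (vertical axis) by distance from the gene start (left) and the gene end (right) in the direction of transcription, for 324 Zfp genes and 16132 other protein-coding genes, with exact Poisson 95% intervals. Other genes dip to 1.02 just after the start, where Zfp genes stand at 2.47.

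The 18 regions at Zfp starts had folds of 3.95 to 24.39 with a median of 8.07, against a median of 11.6 in Zfp bodies, 13.1 at Zfp ends and 10.9 at the starts of other genes. Only 5 of the 18 had a fold of at least 10, and 9 had an FDR of at most 5%. Their summits lay upstream of the start in 10 cases and downstream in 8, and 10 of the 18 genes belong to clusters. The highest folds were 24.39 at Zfp518a (88 tags, FDR 0.03%, 531 bp upstream), 19.83 at Zfp169 (80 tags, FDR 0.04%, 842 bp upstream) and 18.55 at Zfp935 (19 tags, FDR 100%). The lowest was 3.95 at Zfp229, which also had the most tags, 419, at 397 bp upstream, and that region was shared with the neighbour Zfp760. The promoter window nearest the start of the span held a median of 13.5 CG sites in the 18 genes and of 13.5 in the other 306. That window can lie away from the start of the span, so these counts need not describe the DNA under the 18 regions.

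At ends, Zfp334 had a region of 179 tags and fold 29.93 (chr2:165373674-165374252), 237 bp past its end, and Zfp808 had one of 37 tags and fold 27.11 with an FDR of 14.82%, 162 bp before its end. Zfp664 had 64 tags and a fold of 17.22, 861 bp before its end. Zfp1 had 5 regions, with a run of 3 near its start of folds 6.96, 6.59 and 7.07 and FDR values above 5%, and with 2 at its end, of 212 tags and fold 8.80 and of 371 tags and fold 17, both with an FDR of 0%.

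Many Zfp genes sit in clusters, and genes with a region were counted inside and outside these. Runs of at least 3 Zfp genes with neighbours at most 250 kb apart gave 29 clusters with 202 genes. Of the clustered genes 83 had a region (41.1%, 34.2 to 48.2%), and of the other 185 Zfp genes 103 had one (55.7%, 48.2 to 63%), so that the intervals meet at their edges. In the span class of 20 to 50 kb the shares were 38.7% (27.6 to 50.6%) in clusters and 60.7% (46.8 to 73.5%) outside. They were 40.2% and 39.7% at 10 to 20 kb, and 37.9% and 44.8% under 10 kb. Long genes were mostly outside clusters, with 16 against 4 at 50 to 100 kb and 21 against 2 at 100 kb or more. The shares over all lengths were not matched for span. The median fold was 10.1 in clusters (8.56 to 11.6) and 11.6 outside (10.5 to 13.1), with overlapping intervals. Counting regions near any gene or none, the clusters held 20.3 per Mb over 10.3 Mb. Between the outermost coding genes of the autosomes the value was 14.3 per Mb, which was not matched for gene density. Without the densest cluster, an alternative added after the data were seen, the clusters held 18.4 per Mb, and 38.0% of 187 genes had a region. The clusters held 210 regions, while 116 regions lay within 5 kb of a clustered Zfp gene. The chromosome 7 cluster from Zfp553 to Zfp646 held 30 regions and 22 other coding genes, and 3 of its regions were near a Zfp gene. In 25 clusters at least 1 Zfp gene had a region, and in 4 none had.

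**Figure D4:**
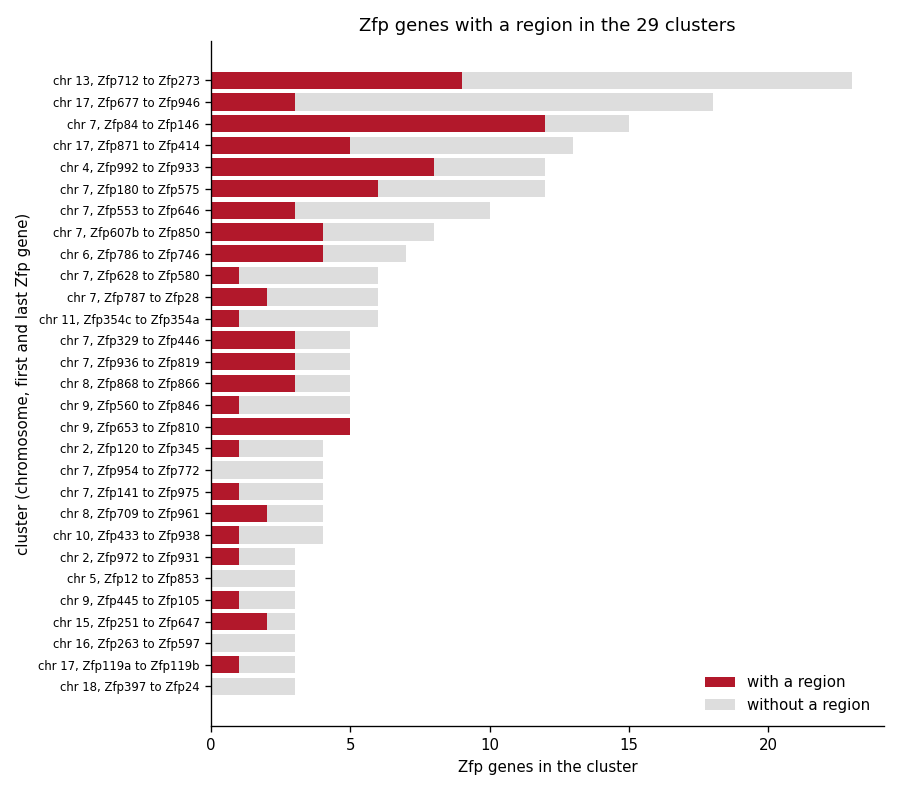
Number of Zfp genes (horizontal axis) with and without a region in each of the 29 clusters, named by chromosome and by first and last Zfp gene, from the cluster with the most genes at the top. The chromosome 7 cluster from Zfp84 to Zfp146 has 12 of 15 genes with a region and the chromosome 17 cluster from Zfp677 to Zfp946 has 3 of 18.

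The cluster with the most regions per Mb was that from Zfp84 to Zfp146 on chromosome 7 (29768552 to 30169775), with 27 regions or 67.3 per Mb. There, 12 of 15 Zfp genes had a region within 5 kb, beside 49.0% of all coding genes. These were 23 regions, 15 of them with an FDR of at most 5%, beside 57.3% of all autosomal regions. The tags of the 23 ran from 31 to 424 and their folds from 5.85 to 25.84, and 17 had their summit in a Zfp span. Zfp383 had the deepest, with 424 tags and a fold of 11.68. Zfp790 had a pair of 250 tags (fold 14.31) and 274 tags (fold 16.91), and Zfp74 had the highest fold, 25.84. Zfp568, a KRAB protein that represses a placental promoter of Igf2, had 4 regions in this cluster, of 151, 38, 171 and 359 tags with folds of 6.06, 8.37, 10.13 and 16.26. The deepest of the 4 had the highest fold, and the shallowest had an FDR of 100%. Zfp940, Zfp382 and Zfp146 had none.

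**Figure D5:**
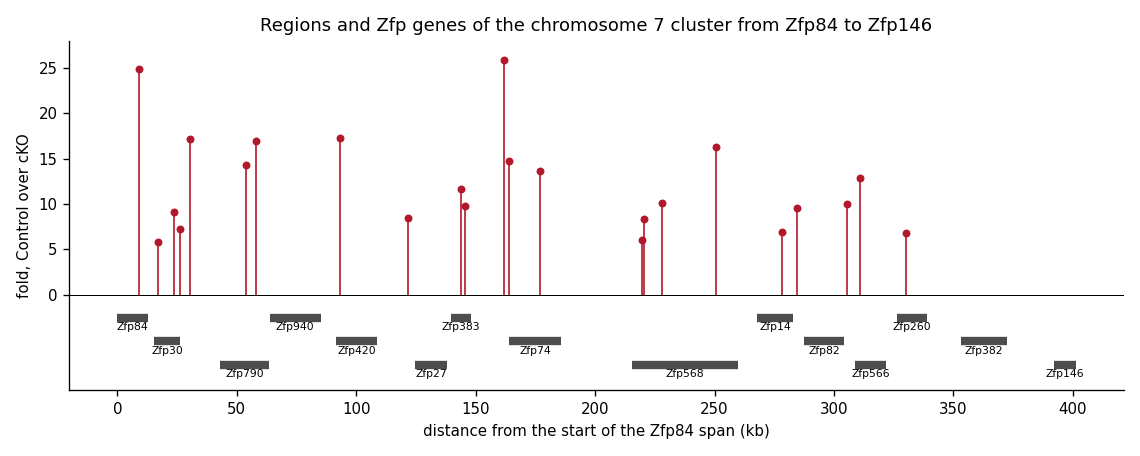
Regions within 5 kb of a Zfp gene in the chromosome 7 cluster as stems, with the authors' fold (Control over cKO, vertical axis) by distance from the start of the Zfp84 span (kb, horizontal axis), and the spans of its 15 Zfp genes as bars below. The 23 regions are spread over the cluster up to Zfp260, and none lies at Zfp382 or Zfp146; the other 4 regions of the cluster lie farther than 5 kb from a Zfp gene and are not drawn.

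The largest cluster, on chromosome 13 (Zfp712 to Zfp273, 67038594 to 67827000), had a region at 9 of its 23 genes, beside 49.0% of all coding genes. Zfp729a had 3 there, of folds 12.54, 6.33 and 24.88. The chromosome 17 cluster from Zfp677 to Zfp946 had a region at 3 of 18 genes, beside the same 49.0%, and held 7.46 regions per Mb. Those 3 genes were Zfp820, with 2 regions of folds 10.96 and 8.79, and the neighbours Zfp760 and Zfp229, which shared the region of fold 3.95. Over the whole of chromosome 17, 11 of 46 Zfp genes (23.9%) had a region, against 44 of 93 (47.3%) on chromosome 7. By chromosome the shares ran from 20% of 5 Zfp genes on chromosome 16 to 80% of 5 on chromosome 3. The shares of all coding genes by chromosome are not given here, so a trait of the chromosome cannot be told apart from one of the Zfp genes.

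In the chromosome 4 cluster from Zfp992 to Zfp933, 8 of 12 genes had a region, beside 49.0% of all coding genes. Only 5 of its 18 regions had an FDR of at most 5%, beside 57.3% of all autosomal regions. Zfp978, with 8 regions over a long annotated span, had 1 such region. Zfp982 had a region of 43 tags and fold 36.28 with an FDR of 0.54%, whereas the region of Zfp985 (18 tags, fold 22.58) had an FDR of 100%. All 5 Zfp genes of a small chromosome 9 cluster, picked after its values were seen, had a region, beside 49.0% of all coding genes. These were Zfp653, Zfp872, Zfp809, Zfp599 and Zfp810. An FDR of at most 5% was given to 5 of the 7 regions there, beside 57.3% of all autosomal regions. The region of Zfp653 lay inside the neighbouring gene Ecsit, and that of Zfp599 was also counted for Zfp809. Both regions of Zfp810 had an FDR above 5%, of 38.34% and 100%.

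Of 24 Zfp genes whose promoter was at least 90% identical to that of another Zfp gene, 6 had a region (25%, 9.77 to 46.7%), against 145 of 300 with less like promoters (48.3%). The 24 genes are copies in pairs or small groups, and the interval counts them as independent, so it may be too narrow. Both genes had one in the pair Zfp955a and Zfp955b on chromosome 17, whose promoters are identical over 300 bases and point away from each other. The 250 bases before the start are printed for Zfp955a (chr17:33255146-33255395, minus strand).
Zfp955a: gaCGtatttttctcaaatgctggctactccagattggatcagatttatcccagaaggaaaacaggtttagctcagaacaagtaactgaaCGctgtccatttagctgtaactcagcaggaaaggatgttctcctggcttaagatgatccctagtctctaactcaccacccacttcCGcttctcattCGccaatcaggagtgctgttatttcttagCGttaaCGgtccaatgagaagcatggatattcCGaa
In Zfp955a a region of 164 tags and fold 15.64 (chr17:33249436-33249970) had its summit 5477 bp from the start, and in Zfp955b a region of 159 tags and fold 18.03 (chr17:33294733-33295265) had its summit 5515 bp from the start. Both had an FDR of 0%. How reads that fit several copies were placed is not given in the sources used here. Their part in these values and in the share of 25% was not tested.

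Genes with a known role were read by list. Of 7 genes with a known role in retroelement silencing or imprint upkeep, 4 had a region, with 9 regions of median fold 8.01, of which 7 had an FDR of at most 5%, beside 49.0% of all coding genes and 57.3% of all autosomal regions. The median fold of all autosomal regions was 12.09. Zfp809, which silences proviruses of the murine leukaemia virus kind, had 3 regions. One of 128 tags and fold 8.01 lay 772 bp after the start, and one of 352 tags and fold 7.71 in the body. The other, of 242 tags and fold 6.93, had its summit 4925 bp past the end, in the span of the neighbour Zfp599. Zfp568 had 4, as given above. Zfp445, which acts in imprint maintenance, had 1 of 82 tags and fold 6.71 with an FDR of 82.09%, and Zfp819 had 1 of 230 tags and fold 11.58 with an FDR of 0%. Zfp57, the KRAB protein that keeps methylation at imprinting control regions, had none, nor had Zfp708 and Zfp932.

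Of 6 regulators of skeletal or mesenchymal cells, 2 had a region, beside 49.0% of all coding genes, with 11 regions of median fold 14.1, of which 7 had an FDR of at most 5%. Both have spans over 100 kb, a class in which 86.8% of other genes had a region. Zfp423, a BMP and Smad cofactor that commits cells to the fat lineage, had 7 over a span of 300244 bp, of which 6 had an FDR of at most 5%. The deepest of these held 330 tags at a fold of 11.56, and the highest fold with an FDR of 0% was 28.33, with 141 tags. Zfp521, a regulator of osteoblast and chondrocyte differentiation, had the other 4, of 118, 26, 63 and 106 tags with folds of 8.14, 19.88, 8.07 and 7.69. Only the first of these had an FDR of at most 5% (0.71%). Zfp467, Zfp219, Zfp60 and Zfp385a had none. None of the 3 Zfp36 genes, whose proteins trigger decay of mRNAs with AU-rich elements, had a region, beside 49.0% of all coding genes. Zfp36l1 and Zfp36l2 have spans of 5254 and 4024 bp, and 24.1% of other genes under 10 kb had a region.

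On a list of 14 other regulators without a KRAB domain, 13 had a region, beside 49.0% of all coding genes. Their 32 regions had a median fold of 12.1, and 18 had an FDR of at most 5%, beside 57.3% of all autosomal regions. The list does not hold all Zfp genes without a KRAB domain and was chosen with earlier results of these data known. Its share of 13 of 14 therefore need not hold for such genes as a class. Of the 14 genes, 7 have spans of 50 kb or more, where 73.1% or 86.8% of other genes had a region by class. Only Zfp516 had none. Zfp217 had a second region, of 242 tags and fold 15.03. Zfp281, a factor of pluripotent cells with a span of 5491 bp, had 1 region of 205 tags and fold 17.17. Its summit lay 4918 bp past the end of the gene, outside any coding gene. Zfp704 had 4 regions with a highest fold of 23.78. Zfp703 had 3 with a highest fold of 20.33, all outside coding genes. The regions of Zfp207 and Zfp335 also lay outside coding genes, so the count of genes includes some with regions in the flanks alone. Zfp143, an activator that binds many promoters, had 2 regions, neither with an FDR of at most 5%.

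Among 5 neuronal regulators 4 had a region, with 20 regions of median fold 16.8, of which 8 had an FDR of at most 5%, beside 49.0% of all coding genes and 57.3% of all autosomal regions. All but Zfp365 have spans over 100 kb, where 86.8% of other genes had a region. Zfp536, which restrains neuronal differentiation, had 11 over 456017 bp, the most of any Zfp gene. Their folds ran from 6.56 to 42.94, and 4 had an FDR of at most 5%. Zfp385b had 6, the deepest with 304 tags and fold 20.52 near its end. Zfp804b had 2, with FDR values of 94.96% and 35.38%, and Zfp804a had none. These counts of regions were not scaled to the length of the span.

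Zfp106 and Zfp64 also were among the 10 Zfp genes with the most regions. Zfp106, an RNA-binding protein needed in motor neurons and muscle, had 5 regions of 123 to 244 tags over 57045 bp, all with an FDR of at most 5% and with folds of 9 to 20.27. Zfp64 had 6 over 62257 bp, of which 4 had an FDR of at most 5%, the deepest with 338 tags and fold 14.94. Zfp609 had 6, of which the 3 with an FDR of at most 5% held 343, 215 and 136 tags at folds of 13.95, 14.47 and 9.08. Zfp462, a zinc finger protein that acts in heterochromatin, also had 6, and the 2 with an FDR of at most 5% held 234 and 72 tags at folds of 14.40 and 12.70. In Zfp532 there were 5, and the highest fold was 31.38 with 84 tags and an FDR of 0.02%. Each of these last 3 genes also had at least 1 region with an FDR of 100%. Zfp964 had a single region, 1920 bp past its end (chr8:69668703-69669381), of 237 tags and fold 35.21, and Zfp287 had a single region in its body (chr11:62721889-62722608), of 373 tags and fold 14.56.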

How the data were processed

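MACS 1.4.2 and mm10 are named in the submitters' processing notes. Per the file headers, the authors called regions with Control as treatment and cKO as background at a p limit of 1e-10, keeping at most 1 tag at each position. No aligner is named and no rule for reads that match several places (not given in the sources used here). The deposited tag count is a whole number of Control tags. The deposited score is the negative log10 of the caller's p, times 10. The deposited fold is the ratio of Control signal to the cKO-based background. The deposited FDR is in percent. None of these was recomputed; they describe and rank regions within the list.

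Regions of chromosomes 1 to 19 were joined to RefSeq genes (GRCm38.p6, to which mm10 corresponds) at an overlap of at least 1 bp and a flank of 5 kb. Strand and promoter sequence came from the RefSeq promoter table, for 324 of 387 Zfp genes. Exon, intron and UTR classes, repeats and zinc finger numbers were not analysed here. Shares have exact binomial (Clopper-Pearson) 95% intervals. The members, gene lists and rules were chosen with earlier results of these data known. Named genes were the 10 with the largest fold in a region within 1 kb of either end, the 10 with the most regions, the 10 with the highest score, up to 4 by fold in each of the 6 largest clusters, and the role lists. Zfp131, Zfp217, Zfp600, Zfp979, the small chromosome 9 cluster and the extremes of other measures were named, and the printed sequences picked, after their values were seen. The join was tested on simulated data. The tools were SciPy 1.17.1, pandas 2.3.3, NumPy 2.4.6, Biopython 1.88 and Matplotlib 3.10.9 under Python 3.11.15.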

Additional observations from a re-analysis of the deposited data

How the results depend on the processing

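No paired analysis was possible because there is 1 library per genotype. Of 75 alternative values, 56 stayed within the counting interval or within 1.5 times the count, and 19 moved. The share of Zfp genes with a region was 41.3% at a score of at least 150, 37.5% at a score of at least 200 and 31.8% at an FDR of at most 5%, where all coding genes stood at 44.9%, 41.4% and 36.5%. It was 35.1% for the span alone, 38.2% with 1 kb and 55.3% with 10 kb on each side. It was 41.1% in clusters and 55.7% outside, and by span 41.4% under 10 kb, 40% at 10 to 20 kb, 80% at 50 to 100 kb and 91.3% at 100 kb or more. Without chromosome 17, an alternative added after the data were seen, it was 51.3%. The median fold was 12.6 at a score of at least 200 and 13.3 at an FDR of at most 5%, with 12.88 and 13.44 for all autosomal regions. The number of regions was 183 at an FDR of at most 5%. The share with that FDR was 67.8% at a score of at least 150 and 78.5% at a score of at least 200. All autosomal regions numbered 28626 and 24641 at these scores, and 19857 at an FDR of at most 5%. The share at a gene start was 12% with a window of 2 kb and 2.7% with 0.5 kb. Shares of other genes at these windows, and at the flank widths above, are not given here. Whether the difference from other genes at starts holds at these windows was not tested. These limits and windows change which regions enter by construction. The tag count limits precision, since Zfp regions held 11 to 438 tags.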
